A study of Mus musculus with 11 samples.

Results

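The 32 genes described here are Trp53, which encodes the transcription factor p53, and 31 genes of its response, with the best known target Cdkn1a (p21) left out. They were chosen by name, with earlier results of these data known. All 32 were present among the 20368 gene symbols of both expression tables, Pidd under its older symbol Lrdd. The cells were C2C12, a mouse myoblast line of strain C3H that stops dividing and fuses into myotubes when serum is lowered. PolyA RNA was sequenced at 4 h of differentiation in medium with 2% horse serum from cells with RNAi against the enhancer RNA of the DRR, the distal regulatory region of Myod1 (DRRi), from their controls with RNAi directed at GFP (GFPi), and from cells made to overexpress the DRR RNA (pHAN_DRR1.2) or GFP (pHAN_GFP). ChIP-seq peaks of MyoD and MyoG, regulators of the muscle programme, and domains of the enhancer mark H3K4me1 came from proliferating myoblasts in 10% fetal bovine serum or from myotubes at 48 h of differentiation. Each group held 1 library of 1 cell line, so none of the differences could be checked against replicates, and the p-values and q-values given are those of the authors' deposited tables.

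p53 is a transcription factor that is kept at a low level by the ubiquitin ligase MDM2 and its partner MDM4. DNA damage, ribosomal stress or oncogene activity stabilises it, mostly at the level of the protein. It then binds response elements made of repeats of a 10-base consensus and switches on genes that halt the cell cycle, drive apoptosis, adjust metabolism and repair DNA. Mdm2 is itself a target, which closes a feedback loop. In muscle cells p53 is known for a role in differentiation beside its role in the response to damage.

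Summed levels over all genes lay between 383311 and 411626 FPKM (fragment counts scaled by the authors for length and library size). The read depth of the libraries is unknown. All 8 myoblast markers examined, among them Des and Myod1, were at 1 FPKM or more in all 4 libraries, with a summed level of 472 FPKM in DRRi, 571 in GFPi, 1133 in pHAN_DRR1.2 and 940 in pHAN_GFP. The 4 endothelial markers summed to at most 0.12 FPKM in any library, and the 5 measured blood markers to at most 2.52, nearly all from Cd68. Adipocyte markers summed to 7.70 to 10.4 FPKM, nearly all from Pparg, and neural markers to 24.5 to 91.0 FPKM, nearly all from Tubb3, which was at 35.5 FPKM in DRRi and 24.5 in GFPi (log2 change 0.52). Fibroblast markers summed to 0.876 FPKM in DRRi and 1.12 in GFPi, with 3 and 2 of 5 listed at 0, and to 8.78 and 4.72 in pHAN_DRR1.2 and pHAN_GFP. The myoblast markers were lower in sum in DRRi than in GFPi, and 2 of the 8 passed 1.5-fold, Chrna1 (34.6 against 60.2 FPKM) and Itga7 (46.8 against 74.3). The part of these and of Tubb3 in the p53 gene differences described next was not tested.

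The first comparison asked how RNAi against the DRR RNA altered expression early in differentiation. Of the 32 genes, 30 averaged at least 1 FPKM over DRRi and GFPi, and 19 of these were 1.5-fold or more higher in DRRi, against 4.66% of the 10577 genes at that level. None of the 30 was 1.5-fold or more lower, against 3.5% of all genes. These folds are on the scale of log2(FPKM + 1), as are all log2 changes below, and they understate the change of weakly expressed genes. At 2-fold or more, 8 of the 30 were higher, against 0.898%, and 0 lower, against 0.804%. The median log2 change of the 30 was 0.70, beside 0.02 for all genes, and 25 of the 30 lay above 0, against 53.5%. By change, 8 of the 30 were among the 100 genes furthest above GFPi and 19 among the 500 furthest. By the authors' deposited table, 8 of the 30 had a q under 0.05 and were higher in DRRi, against 0.643% of all genes, 0 were lower at that q, against 0.577%, and 17 had an unadjusted p under 0.05, against 7.75%. The genes were chosen with earlier results of these data known, so these shares describe the list. In such bulk libraries, fewer cells of a type and less RNA per cell cannot be told apart.

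**Figure D1:**
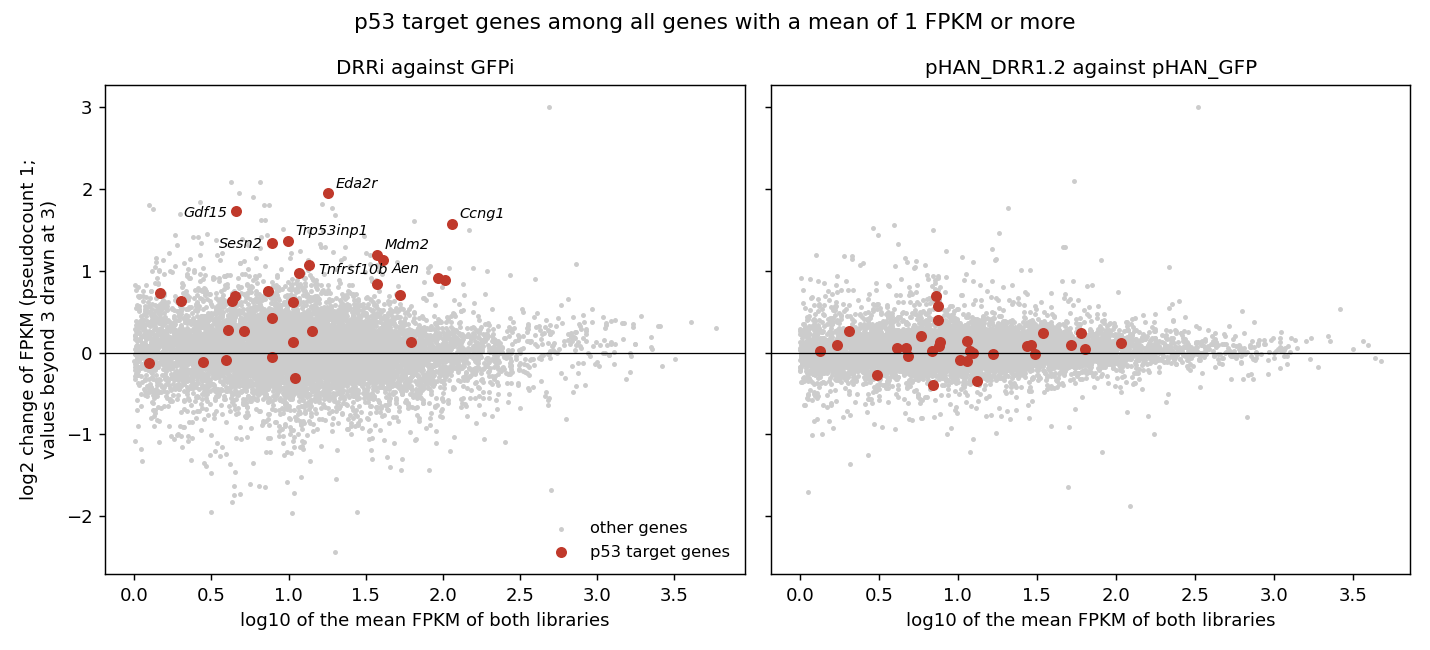
Log2 change of FPKM (vertical axis, pseudocount 1) against the log10 of the mean FPKM of the 2 libraries compared (horizontal axis), with 1 point for each gene averaging at least 1 FPKM. The 30 p53 target genes (red) lie mostly above 0, on the upper side of the other genes (grey), for DRRi against GFPi, where the 8 named ones are at 2-fold or more, and close to 0 for pHAN_DRR1.2 against pHAN_GFP.

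Trp53 itself was at 64.9 FPKM in DRRi and 59.3 in GFPi (log2 change 0.13), and at 53.8 in pHAN_DRR1.2 and 50.1 in pHAN_GFP (0.10). The mRNA level thus spanned 50.1 to 64.9 FPKM over the 4 libraries, in 2 tables that were normalized separately. Its 2 coding sequences gave 52.1 against 49.5 and 12.8 against 9.85 FPKM in DRRi and GFPi. The start of Trp53 overlaps the antisense gene Wrap53, and the sources used here do not say whether counting used strand, so their reads cannot be told apart. Mdm2, the ligase that marks p53 for degradation (chr10:117125960-117147772, mm9), was at 52.7 FPKM in DRRi and 22.5 in GFPi, a log2 change of 1.19 (authors' deposited table, q = 0.00664). The other libraries held Mdm2 at 28.3 and 26.7 FPKM, so that DRRi stood apart and the remaining 3 lay close together. Mdm4, which inhibits p53 without degrading it, was at 15.6 against 12.8 FPKM (0.26).

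All 6 measured genes of cell cycle arrest and growth control were 1.5-fold or more higher in DRRi, against 4.66% of all genes. The seventh listed gene, Rprm, a G2 arrest factor, reached at most 0.0227 FPKM in any library. Ccng1 encodes cyclin G1, which recruits a phosphatase to MDM2, and lies at chr11:40562053-40568788 (mm9). It stood at 172 FPKM in DRRi, 57.1 in GFPi, 65.2 in pHAN_DRR1.2 and 63.2 in pHAN_GFP. The DRRi library alone was high, 3.01-fold above GFPi as a ratio of FPKM (log2 change 1.57; authors' deposited table, q = 3.00e-05). Gdf15, a secreted stress cytokine, showed another order of libraries, with 7.56 FPKM in DRRi, 1.59 in GFPi, 9.11 in pHAN_DRR1.2 and 5.80 in pHAN_GFP. Here GFPi alone was low, and DRRi lay between the pHAN libraries (1.73 relative to GFPi; authors' deposited table, q = 0.0105). Zmat3, an RNA-binding zinc finger protein, was at 15.8, 7.57, 10.0 and 10.8 FPKM in the same order of libraries (0.97; authors' deposited table, q = 0.0347). Plk2 and Plk3, stress-regulated kinases of the polo family, were at 48.0 against 26.4 FPKM (0.84) and 5.75 against 3.17 (0.70), and the antiproliferative gene Btg2 was at 9.45 against 5.19 (0.76). The authors' deposited table gave q-values of 0.143, 0.656 and 0.392 for these 3 genes.

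Among genes of the mitochondrial and nuclear arm of apoptosis, 6 of 8 measured were 1.5-fold or more higher in DRRi, against 4.66% of all genes. Bax, the effector that opens the outer mitochondrial membrane, was at 134 FPKM in DRRi, 72.3 in GFPi, 65.1 in pHAN_DRR1.2 and 55.1 in pHAN_GFP (0.89). Phlda3, an inhibitor of AKT signalling, was at 122, 64.2, 113 and 104 FPKM in turn (0.91). For Bax the DRRi library was the high one, whereas for Phlda3 the GFPi library was the low one. Aen, a nuclease of apoptotic cells, had 56.1 FPKM in DRRi and 25.1 in GFPi (1.13), and both of its coding sequences were higher, at 45.6 against 19.4 and 10.5 against 5.66. Ei24, a membrane protein of the endoplasmic reticulum, was at 65.6 against 39.7 FPKM (0.71), and Pidd, a scaffold for caspase-2 activation, at 5.41 against 3.16 (0.63). The BH3-only gene Bbc3, which encodes PUMA, was weakly expressed at 2.07 against 0.854 FPKM (0.73). The other BH3-only gene, Pmaip1 (NOXA), was at 2.63 against 2.92 (-0.11), and the apoptosome gene Apaf1 at 7.61 against 7.93 (-0.05). Perp, a gene of desmosomes and p53-dependent death, was below 1 FPKM in all 4 libraries. No gene of this arm had a q under 0.05 in the authors' deposited table. There, 5 had an unadjusted p under 0.05, against 7.75% of all genes.

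The death and TNF receptors held the gene furthest above GFPi of all 32. Eda2r, the receptor of ectodysplasin A2 (chrX:94529179-94572548, mm9), was at 29.2 FPKM in DRRi, 6.82 in GFPi, 8.13 in pHAN_DRR1.2 and 7.37 in pHAN_GFP. The last 3 values lie close together and DRRi was 4.28-fold above GFPi as a ratio of FPKM (log2 change 1.95), rank 4 among all 10577 genes. Tnfrsf10b, the mouse TRAIL receptor, was at 18.9, 8.44, 12.1 and 10.9 FPKM in turn (1.07). The authors' deposited table gave q-values of 0.000385 for Eda2r and 0.0342 for Tnfrsf10b. Fas, the receptor of FAS ligand, was at 2.66 against 1.36 FPKM (0.63) by its summed coding sequences. The more abundant one alone was at 2.18 against 1.23 FPKM. With the pseudocount of 1, large beside such low levels, this gave 0.51, below the 1.5-fold line. Tnfrsf1b, the second TNF receptor, was at 9.66 against 12.2 FPKM (-0.31), the lowest change of the 30.

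In the metabolic and autophagy group, 2 of 4 genes were higher past 1.5-fold, against 4.66% of all genes. Sesn2, a leucine-binding inhibitor of mTORC1, was at 11.6 FPKM in DRRi, 3.97 in GFPi, 12.1 in pHAN_DRR1.2 and 11.9 in pHAN_GFP. GFPi alone was low, and DRRi was level with the libraries of the other table (log2 change 1.35; authors' deposited table, q = 0.0103). Its paralogue Sesn1 was at 11.1 against 10.1 FPKM (0.13). Trp53inp1, an inducer of autophagy and p53 cofactor, was at 14.7, 5.06, 5.90 and 8.06 FPKM in turn (1.37; authors' deposited table, q = 0.0262). Its main coding sequence gave 12.4 against 5.06 FPKM, and the second gave 2.27 against nearly 0. The lysosomal gene Dram1 was at 5.71 against 4.61 (0.26).

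Of 5 genes of DNA repair and nucleotide supply, 1 was 1.5-fold or more higher in DRRi, against 4.66% of all genes. Their median was 0.28, beside 0.02 for all genes. That gene was Ercc5, the XPG endonuclease of nucleotide excision repair, at 13.1 FPKM in DRRi, 8.16 in GFPi, 7.88 in pHAN_DRR1.2 and 7.41 in pHAN_GFP (0.62). Polk, a translesion polymerase, was at 9.10 against 6.55 FPKM (0.42), and Rrm2b, the p53-inducible ribonucleotide reductase subunit, at 4.55 against 3.59 (0.28). The damage sensors of nucleotide excision repair, Ddb2 (1.15 against 1.35 FPKM, -0.13) and Xpc (3.76 against 4.06, -0.09), were close to GFPi. Whether the groups of genes differ from each other was not tested.

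**Figure D2:**
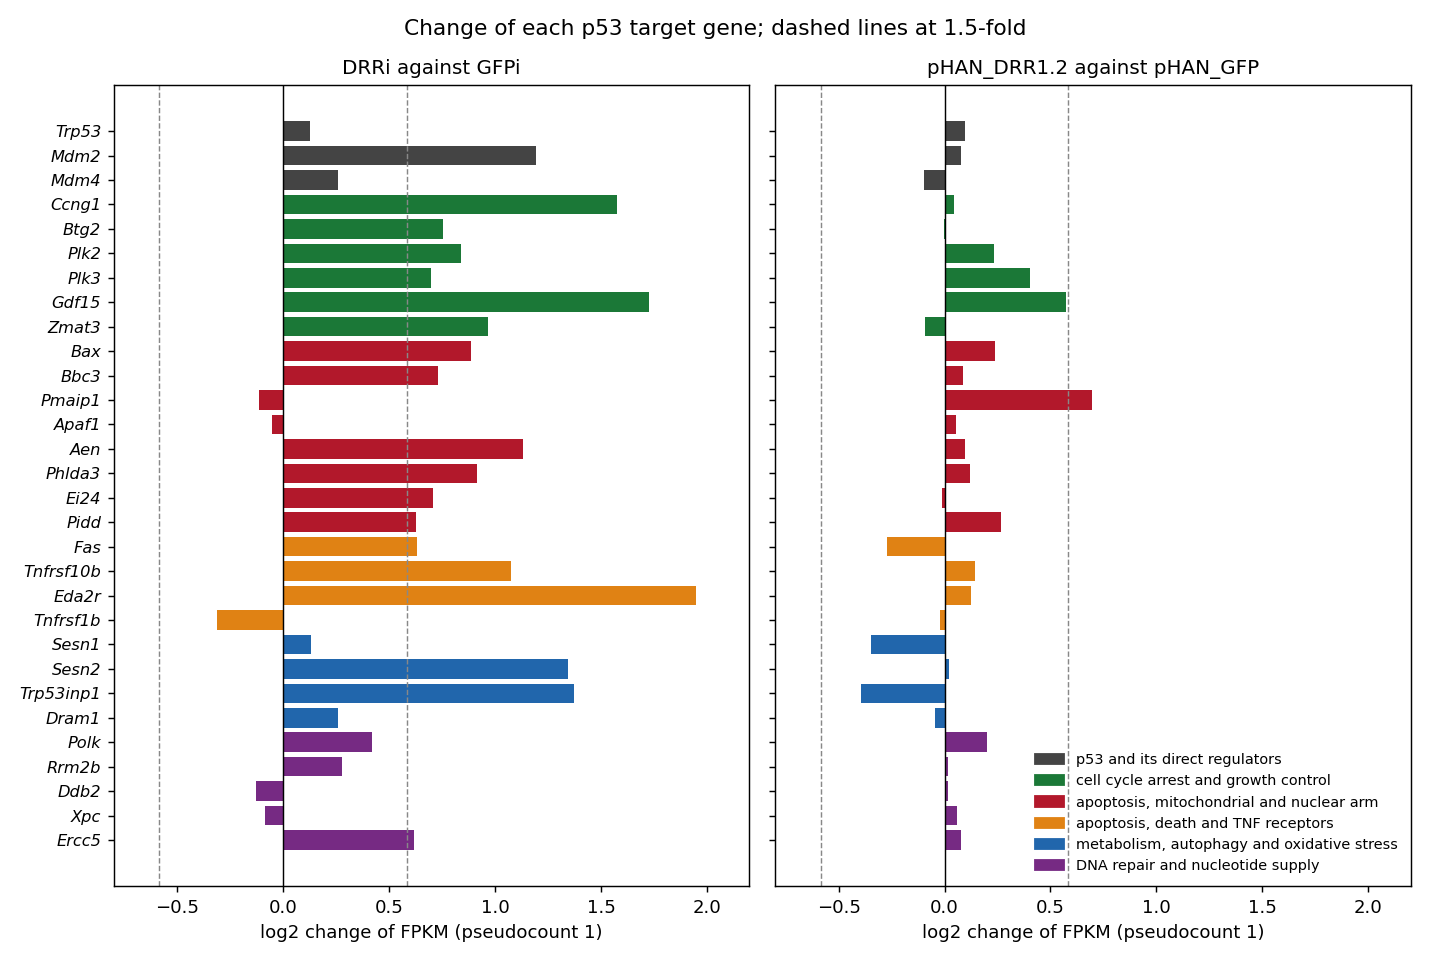
Log2 change of FPKM with a pseudocount of 1 for each of the 30 p53 target genes averaging at least 1 FPKM, coloured by role, for DRRi against GFPi (left) and pHAN_DRR1.2 against pHAN_GFP (right), with 1 library per group and dashed lines at 1.5-fold. On the left 19 bars pass the upper line, led by Eda2r at 1.95, and on the right 1 does, Pmaip1 at 0.70.

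The second comparison, overexpression of DRR RNA against GFP, has controls of its own. Here 1 of 30 genes was 1.5-fold or more higher in pHAN_DRR1.2, against 1.38% of 10699 genes, and none was lower, against 0.654%. At 2-fold or more 0 were higher and 0 lower, against 0.318% and 0.0841%. The median was 0.07, beside 0.02 for all genes, and 21 of the 30 lay above 0, against 55.6%. Of the 5 fibroblast markers, Dcn was higher beside these values (7.78 against 3.02 FPKM), Pdgfra was lower (0.978 against 1.65), and the other 3 were under 0.03 FPKM in both libraries. The neural marker Tubb3 was at 91.0 against 51.0, and the part of these markers was not tested. The 1 gene was Pmaip1, at 9.29 against 5.36 FPKM (0.70), which was not higher in DRRi. Next came Gdf15, at 9.11 against 5.80 (0.57), and Plk3, at 8.66 against 6.31 (0.40). Trp53inp1 (5.90 against 8.06 FPKM, -0.39) and Sesn1 (11.6 against 15.01, -0.35) were furthest below pHAN_GFP. The authors' deposited table had 0 of the 30 with a q under 0.05 in either direction, against 1.03% of all genes higher and 0.589% lower, and 2, Pmaip1 (p = 0.00112) and Gdf15 (p = 0.0395), with an unadjusted p under 0.05, a share near the 5.9% of all genes. Ccng1 (0.04), Eda2r (0.13), Mdm2 (0.08) and Sesn2 (0.02), all at 2-fold or more in DRRi, were close to pHAN_GFP. Over the 30 genes, 17 lay above 0 in both comparisons, against 31.8% of genes measured in both, 8 only in DRRi, against 21.5%, and 4 only in pHAN_DRR1.2, against 23.9%. Below 0 in both lay 1, against 22.8%.

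Set side by side, the 4 libraries divided the higher genes by which library stood out, with the reservation that the tables were normalized separately. DRRi held the highest level for 18 of the 30 genes, against 34.3% of all genes, and GFPi the lowest for 18, against 25.6%. Of the 19 genes past 1.5-fold in DRRi, 14 were highest in DRRi and 15 were lowest in GFPi, against 72.1% and 74% of the 469 genes past that fold and measured in both tables, so this split was near that of all such genes. The 5 not highest in DRRi were Btg2, Plk3, Gdf15, Fas and Sesn2. For Btg2 the pHAN libraries held 12.5 FPKM each, above the 9.45 of DRRi, and for Fas they held 2.69 and 3.46, above 2.66. These 5 are among the 15 lowest in GFPi, whose share was near that of all such genes. That GFPi lay below DRRi in them follows from how they were chosen. Ccng1, Eda2r, Mdm2, Aen and Bax are examples, named without a rule, of the 14 genes highest in DRRi. Others of the 14, such as Ercc5 and Trp53inp1, showed a like gap between DRRi and the rest.

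**Figure D3:**
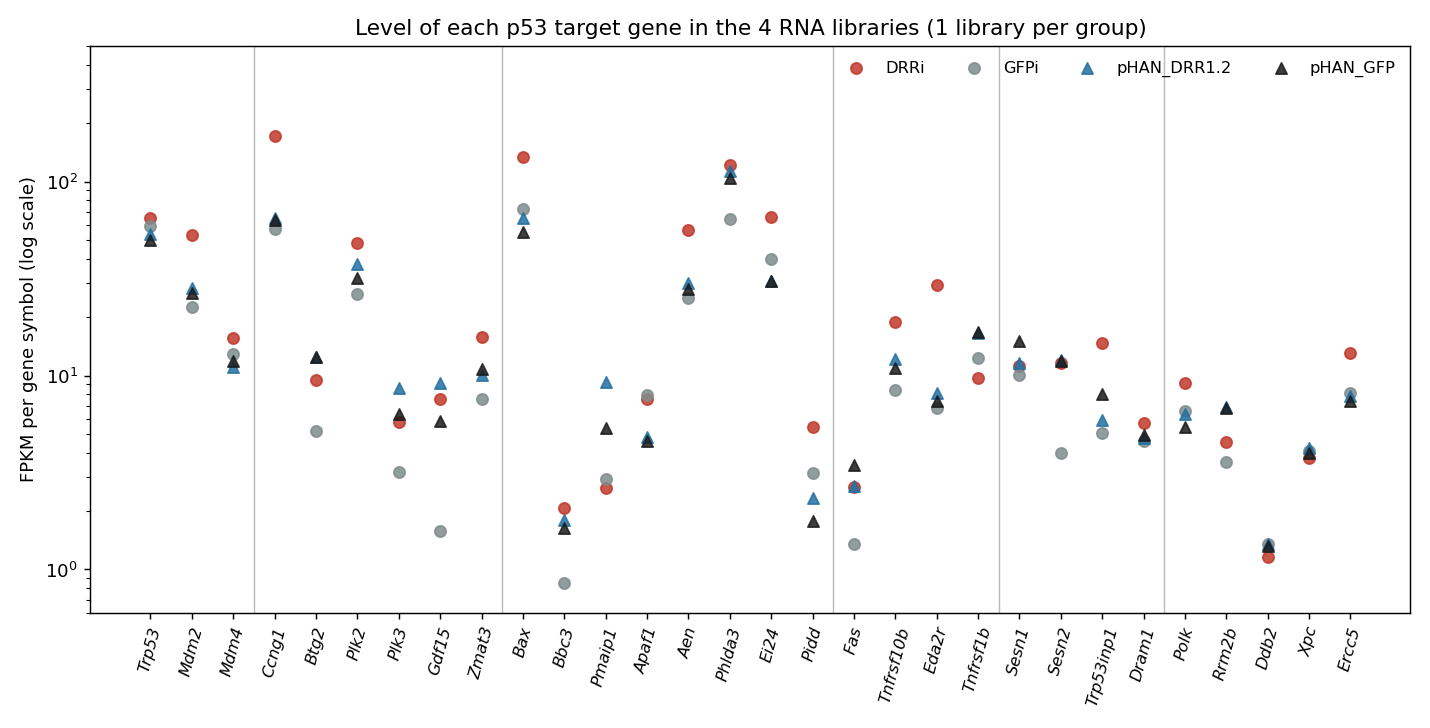
FPKM per gene symbol (log scale) of the 30 p53 target genes averaging at least 1 FPKM in the 4 RNA libraries, with circles for DRRi and GFPi, triangles for pHAN_DRR1.2 and pHAN_GFP, 1 library per group, and vertical lines between roles. For Ccng1 and Eda2r the DRRi point lies above 3 points that are close together (172 FPKM against 57.1 to 65.2 for Ccng1), and for Sesn2 and Gdf15 the GFPi point lies below the other 3.

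Other genes of the p53 network were read from lists. Of 39 measured further targets, 13 were 1.5-fold or more higher in DRRi and 2 lower, against 4.66% and 3.5% of all genes, with a median of 0.39. They included Dcxr, a xylulose reductase (12.1 against 2.75 FPKM, 1.80), and the adenylate kinase gene Ak1 (97.8 against 31.3, 1.61), and the lower ones were Igfbp3, an IGF-binding protein (4.38 against 15.1, -1.58), and Cd82, a tetraspanin named after its value was seen (75.1 against 122, -0.69). Cdkn1a was at 146 FPKM in DRRi, 71.1 in GFPi, 187 in pHAN_DRR1.2 and 150 in pHAN_GFP, the order also seen for Btg2 in that both pHAN libraries lay above DRRi. The authors' deposited table called 6 of the 39 higher and 1 lower, against 0.643% and 0.577% of all genes. In pHAN_DRR1.2, 0 of 36 measured were 1.5-fold or more higher and 1 was lower, against 1.38% and 0.654% of all genes. The lower one was Igfbp3 (7.06 against 12.1 FPKM, -0.70).

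Of 29 measured upstream regulators and cofactors of p53, 1 was 1.5-fold or more higher in DRRi and 0 were lower, with a median of 0.07, a count near the 4.66% of all genes. It was Chek2, the checkpoint kinase that phosphorylates p53, at 6.64 against 3.66 FPKM (0.71; authors' deposited table, q = 0.632). Hipk2 (0.39) and Smyd2 (0.38) followed. Cdkn2a, whose ARF product blocks MDM2, was listed at 0 in all 4 libraries. Of 25 genes that p53 and p21 repress through the DREAM complex, 0 passed 1.5-fold in DRRi, against 4.66% of all genes higher and 3.5% lower. Their median was 0.05. The largest changes were E2f1 at 20.9 against 14.3 FPKM (0.52), Mybl2 at 15.8 against 11.1 (0.47) and Mki67 at 87.4 against 115 (-0.39). In pHAN_DRR1.2 the 25 also held 0 past 1.5-fold, against 1.38% of all genes higher and 0.654% lower. All 25 lay above 0, between 0.02 and 0.39, against 55.6% of all genes above 0.

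Genes of other stress programmes were examined beside them. Of 13 measured genes of amino acid shortage and the factor ATF4, which also drives Sesn2, 5 were 1.5-fold or more higher in DRRi, against 4.66% of all genes, and 0 lower (median 0.39). Chac1 (10.5 against 2.74 FPKM, 1.62), Ddit4 (45.3 against 16.3, 1.42) and Trib3 (7.62 against 2.29, 1.39) led them. Against the same 4.66%, 1 of 8 measured NF-kB targets was higher, the chemokine gene Ccl2 (11.05 against 3.45 FPKM, 1.44), and of 7 measured interferon response genes 0 were, with Isg15 at 4.32 against 2.58 (0.57). In pHAN_DRR1.2, 0 genes of these 3 lists passed 1.5-fold, against 1.38% of all genes higher and 0.654% lower. Atf3 (0.50) and the NF-kB inhibitor gene Tnfaip3 (0.50) were furthest above pHAN_GFP. The upstream regulators also held 0 past 1.5-fold there, with the acetyltransferase gene Kat5 at -0.48 and Rb1 at 0.40. The part of these programmes in the p53 gene differences was not tested.

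Promoter sequence was read from RefSeq (GRCm38.p6), which held 24 of the 32 genes, as the 250 bases before each annotated start. The 10-base p53 consensus, which reads the same on both strands, was present in 8 of the 24, against 8.2% of the 27025 genes in that reference. The genes had been chosen as p53 targets, so this share describes the list. Of the 8, Ccng1, Mdm2, Bax, Aen and Ei24 were 1.5-fold or more higher in DRRi, and Trp53, Sesn1 and Polk were not. The matches are shown to let the sites of higher and other genes be compared, with the consensus in capitals and the flanks in lower case, 5′ to 3′ along the gene, and positions of the first capital counted from the start:
Ccng1 (position -185, chr11:40755452-40755481, minus strand): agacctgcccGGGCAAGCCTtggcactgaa
Mdm2 (position -186, chr10:117710925-117710954, minus strand): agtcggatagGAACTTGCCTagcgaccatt
Bax (position -201, chr7:45467080-45467109, minus strand): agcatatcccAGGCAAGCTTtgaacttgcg
Aen (position -121, chr7:78895927-78895956, plus strand): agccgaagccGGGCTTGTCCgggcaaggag
Ei24 (position -10, chr9:36797335-36797354, minus strand): cgtgcggcccGGGCATGCCC
Trp53 (position -75, chr11:69580274-69580303, plus strand): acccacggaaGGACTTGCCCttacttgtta
Sesn1 (position -173, chr10:41887256-41887285, plus strand): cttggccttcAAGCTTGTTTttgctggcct
Polk (position -231, chr13:96519399-96519428, minus strand): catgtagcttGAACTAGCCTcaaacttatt

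A full response element, counted as a pair of exact matches to the consensus with 0 to 13 bases between, was found in none of the 24 windows and in 0.0666% of genes. The promoter of Cdkn1a held one, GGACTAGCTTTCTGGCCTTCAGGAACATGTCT, at position -73 (chr17:29090906-29090937, GRCm38.p6, plus strand). These windows are short, pairs with a mismatch were not counted, and no match says only that the exact letters are not in them. In the Ccng1 window the bases agacctgccc, just before the capitals, differ from the consensus only by a c where it has a or t. The upstream 250 bases of Ccng1 (chr11:40755287-40755536, minus strand) and Mdm2 (chr10:117710759-117711008, minus strand), both at 2-fold or more in DRRi, are given whole with the consensus in capitals:
Ccng1: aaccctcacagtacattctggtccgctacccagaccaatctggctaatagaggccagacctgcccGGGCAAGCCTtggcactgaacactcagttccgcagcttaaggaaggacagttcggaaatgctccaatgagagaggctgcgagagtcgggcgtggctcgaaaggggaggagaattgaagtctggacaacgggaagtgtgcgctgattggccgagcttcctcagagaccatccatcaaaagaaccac
Mdm2: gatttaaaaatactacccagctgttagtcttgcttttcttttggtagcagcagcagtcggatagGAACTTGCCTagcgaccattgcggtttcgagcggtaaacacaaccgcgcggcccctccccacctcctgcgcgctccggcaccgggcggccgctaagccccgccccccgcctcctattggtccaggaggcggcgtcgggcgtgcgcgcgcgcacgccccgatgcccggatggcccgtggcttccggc
The E-box CANNTG, the core of MyoD and MyoG sites, was present in 15 of the 24 windows, against 69.3% of genes. The form CAGCTG was in 3, those of Mdm2, Mdm4 and Ei24, against 14.7%.

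The ChIP-seq lists show where muscle regulators bound near these genes. MyoD peaks lay within 10 kb of 20 of the 32 loci in myoblasts, against 34.3% of all symbols, and of 23 in myotubes, against 56%, and MyoG peaks near 24 in myotubes, against 52.9%. Among the 30 genes at 1 FPKM or more this came to 19, 22 and 23, against 45%, 73.9% and 69.9% of all 10577 such genes, so that the myotube shares, 73.3% and 76.7%, were near the background and the myoblast share, 63.3%, above it. H3K4me1 domains lay near 30 of 32 loci in myoblasts and 31 in myotubes, against 73.6% and 72% of all symbols and 95.8% and 94.6% of expressed genes. Rprm, which was not expressed, had neither peaks nor domains. The median log2 change in DRRi was 0.70 for the 19 expressed genes with a myoblast MyoD peak and 0.71 for the 11 without. It was 0.80 for the 22 with a myotube MyoD peak and 0.62 for the 8 without, and 0.73 for the 23 with a MyoG peak and 0.63 for the 7 without, differences that were not tested.

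**Figure D4:**
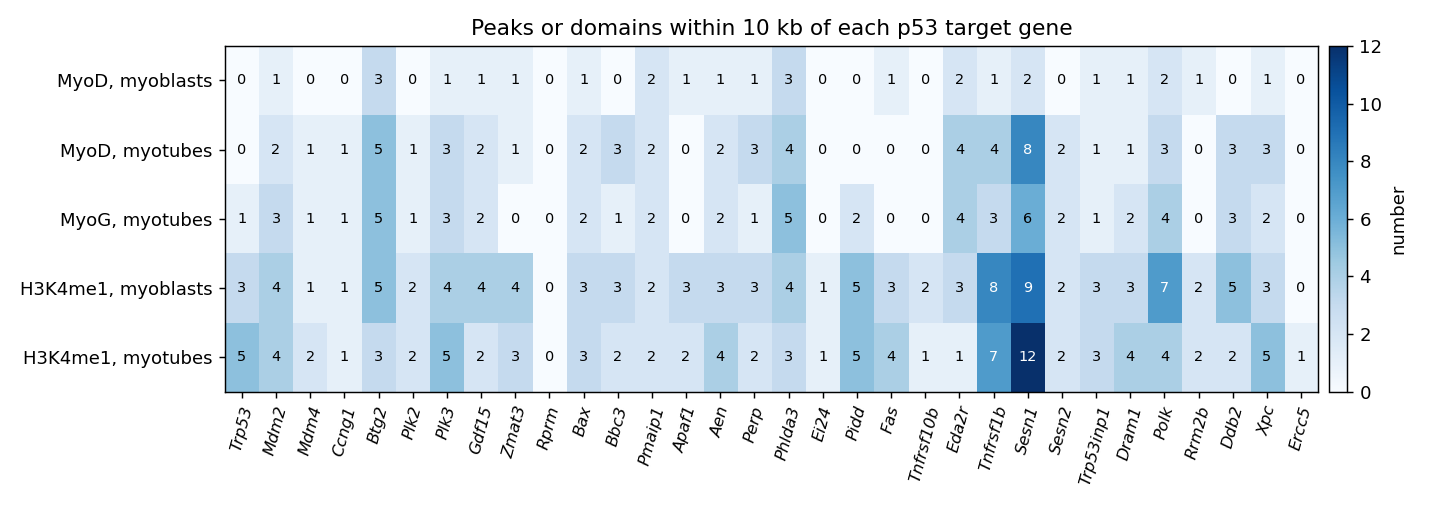
Number of MyoD or MyoG peaks and of H3K4me1 domains within 10 kb of each of the 32 p53 target loci (columns) in each of the 5 lists (rows), with darker blue for more. Sesn1, the longest of these loci, has the most (8 MyoD and 6 MyoG peaks in myotubes), and Rprm has 0 in every list.

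The highest peak scores, which are the authors' own and serve only to rank peaks within a list, were at Btg2 and Tnfrsf1b. A MyoD peak downstream of Btg2 scored 3100 in myotubes (chr1:135967163-135968796, mm9) and 1351 at an overlapping place in myoblasts, and a MyoG peak there scored 1641. Inside Tnfrsf1b a MyoD peak scored 2277 in myotubes (chr4:144828961-144830138) and 1661 in myoblasts. Tnfrsf1b was the gene furthest below GFPi and Btg2 was above it. At Bax, the MyoD peak at the end of the gene scored 1204 in myoblasts and 236 in myotubes, at percentiles 92.7 and 59.8 of their lists. Eda2r held 3 myotube MyoD peaks inside its locus, scoring 659, 269 and 476, of which the first alone had a myoblast counterpart, at 79.3.

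Near its 5′ end, Mdm2 carried a MyoD peak in myoblasts (chr10:117146877-117147677, score 192) and 2 in myotubes, 1 centred on either side of the start. The MyoG peak just upstream of the Mdm2 start scored 649, at percentile 91.1. Ccng1, with the highest level of all 32 genes in DRRi, had no MyoD peak in myoblasts and weak ones in myotubes, a MyoD peak of score 74.5 and a MyoG peak of 104.5 inside the locus. Tnfrsf10b, Ei24 and Ercc5, all past 1.5-fold in DRRi, had no MyoD or MyoG peak within 10 kb in any list. For the 24 genes with a strand in RefSeq, a MyoD peak lay within 1 kb of the 5′ end of 3 in myoblasts, against 12.2% of expressed genes, and of 11 in myotubes, against 32.9%, and a MyoG peak at 8, against 24.3%. H3K4me1 domains lay there at 16 in myoblasts, against 81%, and 17 in myotubes, against 75.9%.

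Most myoblast MyoD peaks near these genes recurred in myotubes, and most myotube MyoD peaks had no myoblast counterpart. Of 28 myoblast MyoD peaks, 23 overlapped a myotube MyoD peak by 1 bp or more, against 73.9% of the whole list and 80.9% of its peaks within 10 kb of an expressed gene. Of 61 myotube MyoD peaks, 24 overlapped a myoblast one, against 34.1% and 32.8%. MyoG peaks overlapped 48 of the 61, against 66.9% and 67.3%. H3K4me1 domains of the same stage overlapped 24 of the 28, against 86.7% and 89.4%, and 51 of the 61, against 85% and 86.6%. Whether these shares differ from those of the lists was not tested. Over the 30 genes with domains at both stages, the highest fold of ChIP over control reads had a median of 3.04 in myoblasts and 3.53 in myotubes, and was larger in myotubes for 24. Over all 9857 expressed genes with domains at both stages it was larger in myotubes for 76.8%, so the count for the p53 genes was near the background. At Bax it was 3.76 and 6.68, from different domains. The second was an 800 bp domain 9933 bp outside the locus, with 34 ChIP and 5 control reads. The domain over Bax itself was at 3.76 in myoblasts and 3.78 in myotubes. At Trp53 the highest folds were 1.85 and 4.10, also from different domains, both outside the locus. Each list was scaled on its own, so the stages were not tested against each other.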

How the data were processed

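FPKM values per coding sequence came from the authors' 2 deposited tables, 1 per experiment, each normalized on its own. The submitters' processing notes list TopHat, SICER, bedtools and mm9, without versions. Each table has a GFP condition and another, read as DRRi or pHAN_DRR1.2 because the labels tie it to 2 samples. The p-values and q-values are the authors' deposited ones; where a gene has several coding sequences the lowest is given. MyoD and MyoG peaks with a score came from MACS, per the file headers. H3K4me1 domains carry deposited counts of ChIP and control reads, their fold as a ratio, and p-values from the authors.

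FPKM was summed per symbol, genes averaging at least 1 FPKM over the libraries compared were kept, and changes are log2 ratios with a pseudocount of 1. With 1 library per group nothing was tested. Peaks within 10 kb of a locus were counted. Alternatives were another pseudocount, filter, coding sequence, centring, fold threshold, distance and score limit. Members, lists and the naming rule (all members, and the 3 largest changes of each other list) were chosen with earlier results of these data known. Some genes that fall under this rule are not given in the text. Python 3.11.15 and pandas 2.3.3 were used, and the calculations were tested on simulated data. The 2 ribosome-depleted RNA samples were not analysed here.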

Additional observations from a re-analysis of the deposited data

How the results depend on the processing

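The count of 19 p53 target genes 1.5-fold or more higher in DRRi came to 8 with a threshold of 2-fold and to 8 by the authors' q. Their median of 0.70 became 0.85 with a pseudocount of 0.1 and 0.84 with a mean of 5 FPKM or more. In pHAN_DRR1.2 the count of 1 higher became 2 with a pseudocount of 0.1, when Gdf15 reached 0.64, and 0 at 2-fold and by the authors' q. Fas in DRRi, at 0.51 with its most abundant coding sequence, was the 1 named gene to drop below 1.5-fold. No named gene past 1.5-fold changed sign, and smaller changes were not checked for sign. Aen in pHAN_DRR1.2, for example, was at 0.09 summed and -0.11 by its more abundant coding sequence. Myoblast MyoD peaks lay within 10 kb of 20 genes, of 13 by overlap with the locus and of 11 in the upper part of the scores. Myotube MyoD peaks lay near 23 and, by score, 15, and MyoG peaks near 24, 14 and 15. Shares of all genes were not computed under these other settings, so the counts there have no background. No paired analysis was possible because each group held 1 library. Unknown RNA depth and the lack of replicates limit every value.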
